A study of Ovis aries with 18 samples.

Results

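The microRNAs miR-103 and miR-107 were followed as a pair in uterine lumen vesicles and endometrium of ewes (Ovis aries). They are the rows named oar-miR-103 and oar-miR-107, 2 of 495 rows in the vesicle table and 2 of 761 in the endometrium table, and both had reads in all 8 vesicle libraries. The pair was chosen by its measured values in vesicles, where it had been seen to differ between treatments. Values of that contrast are therefore given as a description, without a test. All ewes were ovariectomized, so the progesterone (P4) they received was the one given by injection. P4+RU486 ewes were injected each day for 14 days with 50 mg of P4, to which 50 mg of RU486 was added on days 8 to 14. RU486 (mifepristone) blocks the progesterone receptor. P4 ewes had the same daily 50 mg of P4 for 14 days and no RU486. The labels give no breed, age or batch. There were 5 ewes per treatment. Vesicle RNA came from 4 P4+RU486 and 4 P4 libraries, and endometrial RNA from 5 libraries per treatment. Vesicles were concentrated from a saline flush of the uterine lumen and isolated by size exclusion. The flush can hold vesicles from any cell that faces or enters the lumen.

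Mature microRNAs guide Argonaute proteins to messenger RNAs, mostly through the seed, a short stretch near the 5' end. In vertebrates miR-103 and miR-107 have the same seed and differ in a base near the 3' end, so they are taken to share targets. In mice the pair lowers insulin sensitivity through caveolin-1, and in human cancer cells it targets Dicer, the enzyme that cuts microRNA precursors. Both are encoded in introns of pantothenate kinase genes, whose products start coenzyme A synthesis. In the sheep gene table of assembly ARS-UI_Ramb_v3.0, which is not the build of the deposited files, MIR103 lies within PANK3 and MIR107 within PANK1, with 1 gene listed for each. The hosts are different genes.

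The pair was abundant in vesicles but not among the top rows. Vesicle values are normalized CPM, which are reads scaled to a library size that the authors adjusted. Libraries are called R01 to R04 (P4+RU486) and P01 to P04 (P4), since their columns name the treatment but not the ewe. miR-103 ranked 35 to 37 by level in the P4+RU486 libraries and 39 to 52 in the P4 libraries. Ranks count from the most abundant of the 495 rows. miR-107 ranked 44 to 54 in P4+RU486 and 58 to 66 in P4. Ranks within a library do not depend on its scaling, and for both microRNAs every P4+RU486 library ranked them higher than every P4 library did. Such a separation by rank held in 9 of the 229 rows with a mean of at least 10 normalized CPM (3.93%), and nothing is read from it, since this contrast chose the pair. Their summed share of a library was 0.575% ± 0.126 (SD, n = 4) in P4+RU486 and 0.328% ± 0.0394 (SD, n = 4) in P4.

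miR-107 was higher in every P4+RU486 library than in any P4 library. It was at 1768, 2164, 2769 and 1744 normalized CPM in R01 to R04, against 943, 1174, 1115 and 925 in P01 to P04. The lowest P4+RU486 library was 1.49 times the highest P4 library, so the groups did not overlap. The mean was 2111 ± 479 (SD, n = 4) in P4+RU486 and 1039 ± 124 (SD, n = 4) in P4, 2.03 times as high. On the log2(value + 1) scale of the fit over all rows, P4+RU486 minus P4 was 1.0 (SE 0.25).

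miR-103, the more abundant of the pair, was also higher in P4+RU486 on average, but with a small overlap. It was at 3813, 4023, 4437 and 2850 normalized CPM in R01 to R04, against 1493, 2754, 2956 and 1650 in P01 to P04. R04 lay below P03, and the other 3 P4+RU486 libraries lay above all P4 libraries. The mean was 3781 ± 673 (SD, n = 4) in P4+RU486 and 2213 ± 748 (SD, n = 4) in P4, 1.71 times as high. The log2 difference was 0.82 (SE 0.29). As a plain share of a library's reads, miR-103 took 0.270% to 0.452% in P4+RU486 and 0.177% to 0.257% in P4, and on that scale the groups did not overlap, as in 8 of the 229 rows (3.49%).

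Reads of such near-identical microRNAs can be split between the rows by counting, and the sum is free of that split. The sum was 5581, 6187, 7206 and 4594 normalized CPM in R01 to R04, against 2436, 3928, 4071 and 2576 in P01 to P04. All P4+RU486 libraries lay above all P4 libraries, the lowest of them at 1.13 times the highest P4 library. The mean was 5892 ± 1095 (SD, n = 4) in P4+RU486 and 3253 ± 866 (SD, n = 4) in P4, a difference of 0.88 in mean log2. By normalized CPM, 11 of the 229 rows (4.80%) had all P4+RU486 libraries above all P4 libraries and 12 (5.24%) had all below. miR-107 is among the 11, and since this contrast chose the pair, nothing is read from that. In bulk RNA, fewer cells or vesicles of a kind and less microRNA in each cannot be told apart.

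**Figure D1:**
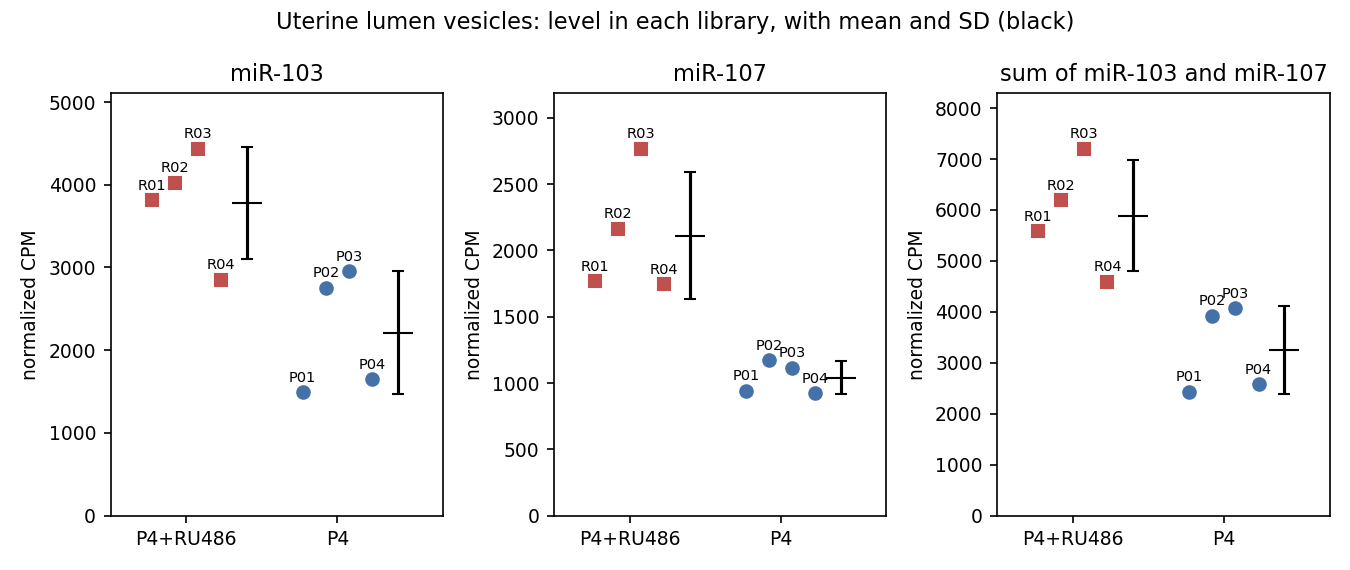
Level of miR-103, miR-107 and their sum in each vesicle library (vertical axes in normalized CPM), P4+RU486 as red squares and P4 as blue circles, with mean and SD in black. For miR-107 the red squares (1744 to 2769) all lie above the blue circles (925 to 1174), while for miR-103 R04 (2850) lies below P03 (2956).

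The pair's differences stood on the upper side of all rows without being the largest. Of 229 rows, 118 had a positive and 111 a negative log2 difference, with a median of 0.04. miR-107 had the 26th and miR-103 the 37th largest positive difference of the 229. Most of the rows above them were less abundant than miR-107. Among the 57 rows at least as abundant as miR-107, miR-107 came 3rd and miR-103 5th, and the median of these 57 rows was 0.01. That cutoff is the level of miR-107 itself and leaves out well-read rows such as 20_18845 (log2 difference 1.23). Since this contrast also chose the pair, nothing is read from these places. In this limma fit 1 of 229 rows (0.437%) passed a Benjamini-Hochberg adjusted p of 0.05, and 0 of 229 (0%) did so as higher in P4+RU486, while 17 were higher at an unadjusted p under 0.05. In the authors' deposited table the vesicle folds were -2.03 for miR-107 and -1.71 for miR-103, where a negative sign means higher in P4+RU486.

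**Figure D2:**
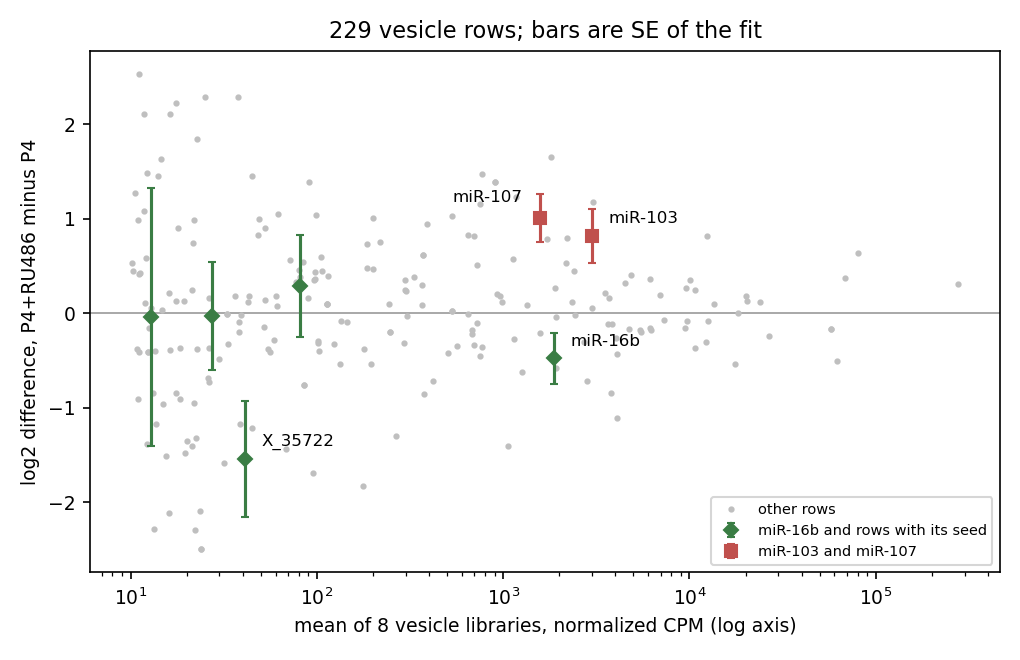
Log2 difference (vertical axis, P4+RU486 minus P4) of 229 vesicle rows against their mean over 8 libraries (horizontal log axis, normalized CPM). miR-103 and miR-107 (red squares, 0.82 and 1.0) lie above 0, miR-16b (green, -0.48) below, and bars are SE of the fit.

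Within each treatment the pair was lowest in the libraries with the fewest reads. Listed rows took 101186 reads in R04, 97202 in P01 and 97593 in P04, but 205410 to 1062646 in the other 5 libraries. miR-103 was at 2850 normalized CPM in R04, against 3813 to 4437 in the other 3 P4+RU486 libraries, and at 1493 and 1650 in P01 and P04, against 2754 and 2956 in the other 2 P4 libraries. miR-107 had the same order with smaller gaps, at 1744 in R04 against 1768 to 2769, and at 943 and 925 in P01 and P04 against 1115 and 1174. This pattern, looked for after the values were seen, held in 34 of the 229 rows (14.8%). It depended on scaling for miR-107: as a plain share of reads, P01 had the highest value of the P4 libraries (0.123%, against 0.0955% to 0.110%), its adjusted library size being 1.31 times its reads.

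This contrast chose the pair, so nothing is read from the sign of its differences among the 5 deeper libraries. All 3 P4+RU486 libraries there lay above the 2 P4 libraries for each microRNA, which fixed that sign in advance. There miR-107 averaged 2233 normalized CPM in 3 P4+RU486 libraries and 1145 in 2 P4 libraries, and the fitted log2 difference was 0.94. miR-103 averaged 4091 and 2855, with a log2 difference of 0.52, which compares with 0.82 over all 8 libraries. The sum differed by 0.65 there, against 0.88. The lowest read numbers were 173 for miR-103 and 97 for miR-107, both in P04, where counting alone gives an SD of 0.11 and 0.15 in log2. That error is small beside the differences between treatments, but not beside the gaps in miR-107 among the P4 libraries. With the log2 of the reads per library as a covariate over all 8 libraries, the fitted log2 differences were 0.94 for miR-103 and 1.05 for miR-107, so that for miR-103 the covariate and the smaller set of libraries moved the value in opposite directions.

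**Figure D3:**
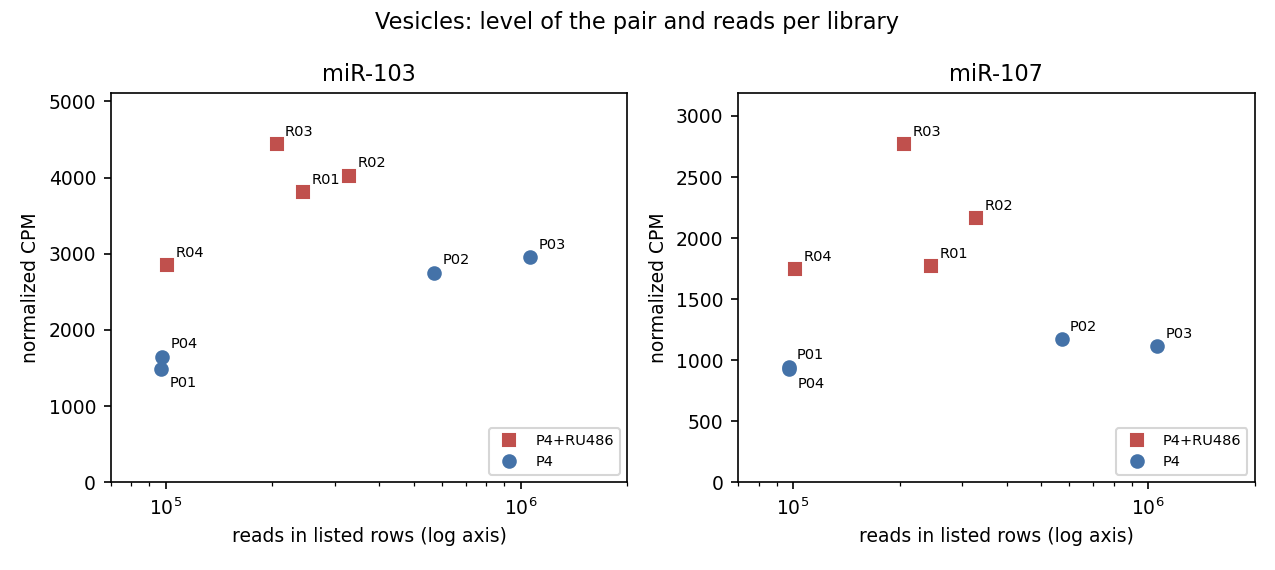
Level of miR-103 (left) and miR-107 (right, both in normalized CPM) against reads in listed rows of each vesicle library (log axis), P4+RU486 as red squares and P4 as blue circles. R04, P01 and P04, with 97202 to 101186 reads, hold the lowest values of their treatment.

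The balance within the pair overlapped between treatments. The share of miR-107 in the reads of the pair is independent of library scaling. It was 31.7%, 35.0%, 38.4% and 38.0% in R01 to R04, and 38.7%, 29.9%, 27.4% and 35.9% in P01 to P04. The highest share thus belonged to a P4 library, as did the lowest. The mean was 35.8% ± 3.12 (SD, n = 4) in P4+RU486 and 33.0% ± 5.24 (SD, n = 4) in P4. miR-103 was accordingly the larger member in all 8 libraries, at 1.60 to 2.16 times miR-107 in P4+RU486 and 1.58 to 2.65 times in P4. The log2 ratio of miR-107 to miR-103 differed by 0.19 between the group means, less than the pooled SD of 0.28. This value ranged from 0.06 without P03 to 0.31 without P01. Among the 5 deeper libraries, 3 of P4+RU486 and 2 of P4, it was 0.42. The shares there were 31.7% to 38.4% in P4+RU486 and 27.4% to 29.9% in P4. Groups this small separate easily, and how often other ratios did so was not counted, so nothing is read from it.

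Some of the spread in this share went beyond counting error, if each read is taken as an independent molecule. In R03, miR-107 made up 579 of 1507 reads of the pair, with a 95% Wilson interval of 36.0% to 40.9%. In the deepest library, P03, it made up 1015 of 3705 reads, with an interval of 26.0% to 28.9%. P02, with 627 of 2098 reads, had 28.0% to 31.9%. Both lay apart from R03, while R01 (29.2% to 34.3%) overlapped P02 and also lay apart from R03. The shallow libraries P01 (33.5% to 44.2%) and P04 (30.4% to 41.8%) had wide intervals that overlapped those of R02, R03 and R04. All 3 libraries with the fewest reads had shares of 35.9% or more, while the deeper P4 libraries had the 2 lowest shares. These intervals cover counting error only, as no molecular identifiers were counted and several reads may stem from a shared molecule.

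**Figure D4:**
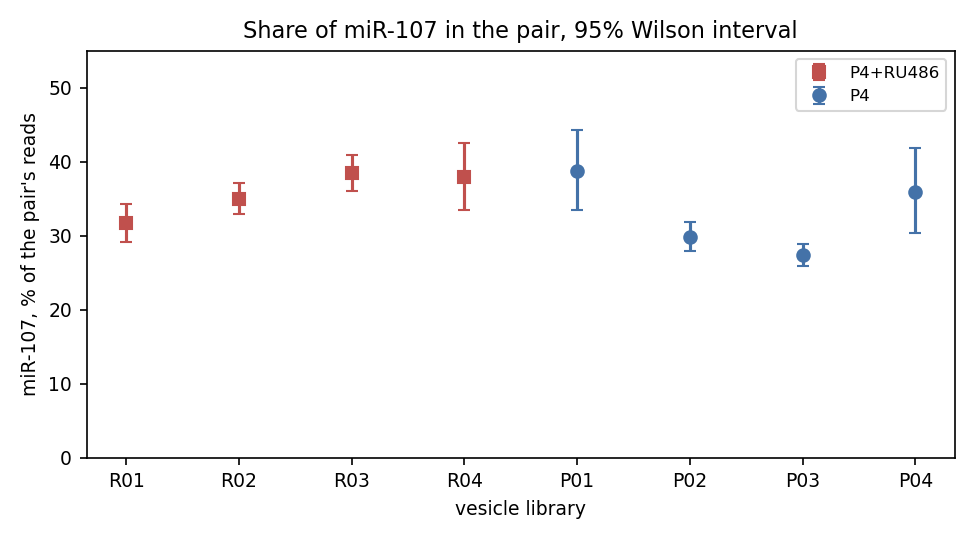
miR-107 as a percent of the reads of miR-103 and miR-107 together in each vesicle library, with 95% Wilson intervals, P4+RU486 (red squares) and P4 (blue circles). The shares range from 31.7% to 38.4% in P4+RU486 and from 27.4% to 38.7% in P4, and the interval is widest in the libraries with the fewest reads.

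The pair belongs to the wider miR-15/miR-107 group, whose members share much of the seed region. Apart from the pair, 7 rows carried a name or listed seed of this group. They were miR-16b and 6 predicted loci listed with the seed of bovine miR-16b, and no row was matched to miR-503 or miR-646. A shared seed does not identify a microRNA, so the loci may be others of the group, such as miR-15, miR-195 or miR-497. miR-15 and miR-16 restrain the cell cycle and the survival factor BCL2 in human cells. Of the 7 rows, 6 were in the vesicle table and 5 reached the mean of 10 normalized CPM. The row 11_5609 did not, with 0 reads in P4+RU486 and 2 reads in P4, and 26_23433 had values in the endometrium table alone.

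By limma, 0 of these 5 rows passed, at adjusted p from 0.299 to 0.990, where 0.437% of all rows did. Their log2 differences were positive in 1 and negative in 4, with a median of -0.04, beside 0.04 over the 229 rows. miR-16b, the most abundant, was at 1755, 1988, 1358 and 1180 normalized CPM in R01 to R04, against 1956, 2831, 2235 and 1689 in P01 to P04. The groups overlapped, and the fitted difference in log2 was -0.48 with an SE of 0.27 (limma adjusted p = 0.461). The row 10_4035 had a log2 difference of 0.29 (SE 0.54). X_35722 had one of -1.54 (SE 0.61, limma adjusted p = 0.299), from 20 reads in all P4+RU486 libraries together and 89 in all P4 libraries. It was the only row of the group past 0.05 in the authors' deposited table (fold 2.19, higher in P4, adjusted p = 0.03), where 1.82% of the 495 vesicle rows were. The means of X_35722 were 62.3 normalized CPM in P4 and 19.9 in P4+RU486, further apart than the deposited fold of 2.19. Why they differ was not tested. The rows 1_3299 and 11_5611 had log2 differences of -0.03 and -0.04 (SE 0.57 and 1.36) at means under 30 normalized CPM.

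Set against miR-16b within the same library, the pair was higher in P4+RU486 by a measure that needs no scaling. The sum of miR-103 and miR-107 was 3.18, 3.11, 5.31 and 3.89 times miR-16b in R01 to R04, against 1.24, 1.39, 1.82 and 1.53 times in P01 to P04. The groups did not overlap, and both the higher pair and the lower mean of miR-16b enter this ratio. How often other rows set against miR-16b would separate the groups was not counted, so nothing is read from that. The mean ratio was 3.87 ± 1.02 (SD, n = 4) in P4+RU486 and 1.49 ± 0.246 (SD, n = 4) in P4. Here the libraries with the fewest reads were not the lowest of their treatment throughout: R04 was above R01 and R02, and P04 above P02. The pair made up 77.3% ± 4.12 (SD, n = 4) of the summed level of the miR-15/miR-107 group in P4+RU486 and 57.6% ± 3.50 (SD, n = 4) in P4. The choice of the pair used this contrast, so these ratios describe the same difference in another way.

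**Figure D5:**
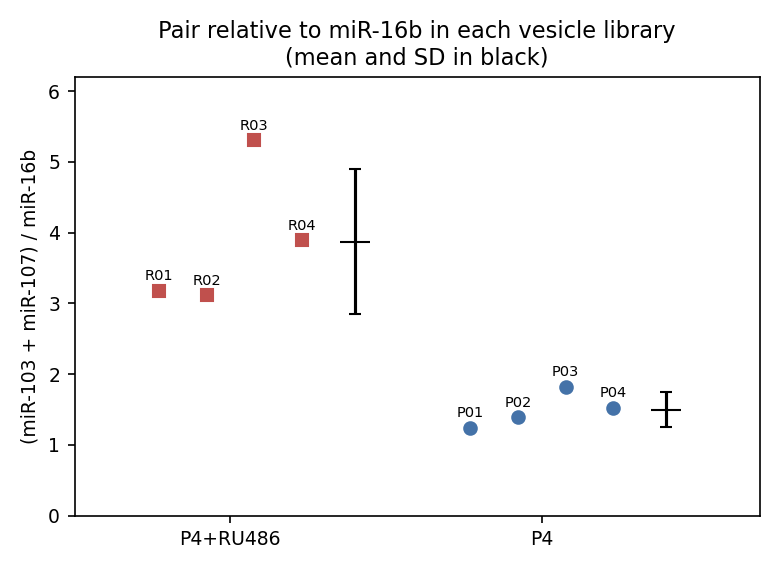
Sum of miR-103 and miR-107 divided by miR-16b (vertical axis, a ratio of values in the same library) in each vesicle library, P4+RU486 as red squares and P4 as blue circles, with mean and SD in black. The P4+RU486 libraries range from 3.11 to 5.31 and the P4 libraries from 1.24 to 1.82.

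In the endometrium, where the pair was not chosen, the authors' deposited table gave folds close to 1 between treatments. The fold was -1.03 for miR-103 and 1.03 for miR-107, each with an adjusted p of 0.990 in the authors' deposited table. Its numerator is not named, so the sign says only that the 2 estimates point opposite ways. Of all 761 endometrial rows, 9 (1.18%) had an adjusted p under 0.05, and 686 had a larger fold than the pair. Over the 226 rows that were both in the vesicle fit and in the endometrium table, the median size of the fold in the authors' deposited tables was 1.36 in vesicles and 1.13 in endometrium. The pair's fold was thus above the median size in vesicles and below it in endometrium. Its place in vesicles follows from how the pair was chosen, so it is not set against that in endometrium. For endometrium, the 10 per-library columns could not be tied to samples by name and stayed unused, so no level, ratio or test is given for tissue. Whether the pair responded differently in vesicles and in tissue was not tested. The 7 other rows of the miR-15/miR-107 group had adjusted p of 0.575 to 0.994 in the authors' deposited table for endometrium, with a fold of -1.23 for miR-16b.

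The microRNAs whose levels ran most parallel to the pair were found by the SD, over the 8 vesicle libraries, of the difference of log2(value + 1) from that of miR-103 or miR-107. For miR-107, miR-103 came 2nd of 228 rows with an SD of 0.28, where the median over rows was 0.89. For miR-103, miR-107 came 4th of 228, where the median was 0.86. The row X_36364, with the seed of miR-421, was nearest to both, with an SD of 0.18 from miR-103 and 0.27 from miR-107. Its mean was 271 ± 22.4 normalized CPM (SD, n = 4) in P4+RU486 and 164 ± 41.7 (SD, n = 4) in P4. X_35830, with the seed of miR-6119-5p, was among the 5 nearest to both (SD 0.21 and 0.37). The others near miR-103 were 24_21892, with the miR-20a seed, and X_35370, with the let-7f seed (SD 0.22 and 0.30). Those near miR-107 were 20_18845, with the miR-877 seed, and let-7d (SD 0.37 and 0.40).

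The order of likeness changed when the treatment difference was taken out. With each row centred within each treatment, miR-103 and miR-107 were still 0.28 apart, but that placed miR-107 20th of 228 from miR-103 and miR-103 10th of 228 from miR-107, where the medians were 0.74 and 0.71. The nearest rows to miR-103 were then 9_34222, with the miR-151-5p seed, and miR-191 (SD 0.15 and 0.17), followed by 24_21892, X_36364 and a row with the miR-1839 seed. The nearest to miR-107 were miR-25, 3_25899 with the miR-181a seed, 24_22006 with the miR-339a seed, let-7b, and 5_29575 with the miR-378 seed (SD 0.20 to 0.23). Of the 5 nearest rows, 2 were shared with those over all libraries for miR-103 and 0 for miR-107. Counting noise, which is larger in rows with few reads, was not removed from these SDs.

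Summed levels of lists for cells that could add vesicles or RNA to the flush overlapped between treatments, apart from liver or plasma. The epithelial list (5 rows, none matched to miR-141 or miR-429) summed to 10482 to 15999 normalized CPM in P4+RU486 and 7118 to 30229 in P4. The erythroid list, for which 1 row with the miR-486 seed was matched and none for miR-451 or miR-144, ranged from 1848 to 5427 and from 281 to 7365. The leukocyte list (3 rows, none matched to miR-142 or miR-223) ranged from 2234 to 5035 in P4+RU486 and from 2501 to 14771 in P4. The liver or plasma list (2 rows, none matched to miR-122 or miR-192) had a lower sum in P4+RU486, at 104 to 138 against 154 to 440. That sum follows the row with the miR-885 seed (63 to 95 against 105 to 416), while miR-194 overlapped (42 to 66 against 24 to 89). By single row, all P4+RU486 libraries lay below all P4 libraries in 12 of the 229 rows (5.24%), so nothing is read from this list. The part of these cells in the pair's difference was not tested.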

How the data were processed

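Per the labels' protocols, Illumina TruSeq small RNA kits were used. The submitters' processing notes name cutadapt 1.11, the build Oar_v3.1 and edgeR. The aligner and read filters were not given in the sources used here. Per the file headers, the vesicle columns hold a normalized signal, and their values match CPM on TMM-adjusted library sizes. Within 0.1 read, 100% of values in each of the 8 columns came out as whole reads, 97202 to 1062646 per library. They are reads in listed rows, so sequencing depth is unknown. The floor of 3 reads was 3.30 to 31.3 normalized CPM. Further deposited columns are the authors' fold, a signed score in which a fold under 1 appears as minus its inverse, and the authors' adjusted p-value. The 10 endometrial columns match no label and were not used.

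The fit was limma 3.58.1 (trend, R 4.3.3) of log2(value + 1) for the 229 rows whose mean reached 10, without covariates, with Benjamini-Hochberg adjustment. Fold changes on this scale understate those of low rows. Group means are of 4 libraries from separate ewes. Alternatives included edgeR 4.0.16 and DESeq2 1.42.0 on the recovered reads, other scalings, pseudocounts and filters, depth as a covariate and libraries left out. edgeR's quasi-likelihood test on the recovered reads called 1 row. The scripts were tested on simulated data. Members and lists were chosen with earlier results of these data known. Rows named are the pair, rows of the miR-15/miR-107 group, and the 5 rows most parallel to each member, also after centring. Other rows matched the lists by name or seed. The files used here hold no sequences of the microRNAs.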

Additional observations from a re-analysis of the deposited data

Results flagged for a closer look

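In the row 9_34222, with the miR-151-5p seed, the P4+RU486 library R04 was at 7444 normalized CPM, far from the other 3 P4+RU486 libraries (9781 to 9976). The gap was 0.923 of the group's range, over the critical value of 0.829 for 4 samples. R04 is the library with the fewest reads of its treatment and also held the lowest miR-103 and miR-107 of it. This was 1 of 48 groups of 4 values looked at, and chance alone marks about 1 in 20. No value of miR-103, miR-107, their sum, the share of miR-107 or the ratio to miR-16b stood apart in this way.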

How the results depend on the processing

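The vesicle contrast chose the pair, so nothing is read from the sign of its log2 differences, which was positive in every alternative run. For miR-107 and the sum all P4+RU486 libraries lay above all P4 libraries, so leaving libraries out could not change the sign. With 1 library left out the log2 differences ranged from 0.86 to 1.09 for miR-107 and from 0.65 to 0.98 for miR-103. For the sum they ranged from 0.75 to 1.0. In 9 other alternatives (scalings, pseudocounts, depth as a covariate, edgeR, DESeq2 and leaving out the 3 shallowest libraries) they ranged from 0.92 to 1.05 for miR-107 and from 0.52 to 0.94 for miR-103, lowest for miR-103 without the 3 shallowest. The log2 ratio of miR-107 to miR-103 ranged from 0.06 (without P03) to 0.31 (without P01), and was 0.42 without the 3 shallowest libraries.

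The count of rows called over the whole vesicle table was 1, and moved to 6 with depth as a covariate, 5 with DESeq2 and 2 without the 3 shallowest libraries, and ranged from 0 to 2 with 1 library left out. It was 0 without P04, R01, R03 or R04, and 2 without P02. Why the count moved was not tested. Of the 229 rows, 4 were called as higher in P4+RU486 with depth as a covariate, miR-103 and miR-107 among them. DESeq2 called 2 of the 229 as higher, miR-107 among them. Since this contrast chose the pair, nothing is read from its calls. Alternatives for endometrium libraries were not run, since their columns were not used. No paired analysis was possible because the vesicle columns carry no ewe number and treatments were given to different ewes. Depth limits the low rows most: 1 read was worth 1.10 to 10.4 normalized CPM.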
